A study of Mus musculus with 2 samples.

Results

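Ccl20, Cxcl1, Cxcl2, Cxcl5, Cxcl15, Cxcl16, Cxcl17, Ccl17, Ccl22 and Ccl6 are chemokine genes that epithelial and myeloid cells of the lung transcribe. These 10 genes were found by symbol among the 28692 genes of the count tables and followed across AT2, secretory, goblet-like, ciliated and myeloid cells. No measured value entered the choice of the genes, although they were listed with earlier results of the same data known.

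Chemokines are small secreted proteins that attract leukocytes by binding receptors on their surface, and a gradient of the protein guides cells to its source. In the airway and alveolus, epithelial cells make chemokines for neutrophils and lymphocytes, and dendritic cells and macrophages make others that draw T cells or monocytes. Among the members, Cxcl1, Cxcl2 and Cxcl5 bind CXCR2 on neutrophils, Ccl20 binds CCR6, Cxcl16 binds CXCR6, Ccl17 and Ccl22 share CCR4, and Ccl6 is a mouse chemokine that binds CCR1. Cxcl15, also called lungkine, is made by mouse lung epithelium, and Cxcl17 is a mucosal chemokine for which GPR35 was proposed as a receptor.

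Flow cytometry for Epcam, an epithelial adhesion protein, selected lung cells of adult C57BL/6 mice, and their transcripts were counted by 10x Chromium single-cell 3′ sequencing. The Control group and the group injured by NAPH (the labels' abbreviation) contributed a single library each. The sources used here do not give the dose of NAPH, the time after it, any treatment of the Control or the number of animals. With 1 library per group no test between the groups was possible, so intervals cover counting error only, and animals, library preparation and treatment cannot be told apart.

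Control held 3298 barcodes with 41699755 unique molecular identifiers (UMIs, 1 per captured transcript), of which 3211 cells were kept, and NAPH held 3685 barcodes with 38497783 UMIs, of which 3573 were kept. The same 14 barcode sequences occurred in both libraries. Cells were gated per 10000 UMIs: AT2 (the surfactant-making alveolar cell) by Sftpc, secretory (club) by Scgb1a1, goblet-like by Scgb3a1 and Bpifb1, and ciliated by Foxj1, Ccdc153 and Tmem212. Myeloid cells had at least 2 UMIs of Ptprc, Coro1a and Cd52 and met no other gate. The gates held 1800 and 2516 AT2 cells (Control, then NAPH), 757 and 197 secretory, 139 and 75 goblet-like, 193 and 204 ciliated, and 447 and 505 myeloid cells. Every goblet-like cell of Control and 67 of NAPH also met the secretory gate, so these gates share cells. In each gate all markers of its own cell type were detected, and the myeloid gate carried 8 of 8 dendritic and 6 of 6 macrophage markers in both libraries. Detection meant any UMI, and the AT2, secretory and myeloid lists were also detected in full in every other gate of both libraries. The AT2 gate too held 8 of 8 dendritic markers, so detection does not tell the gates apart. Median UMIs per cell differed between the libraries, most in ciliated cells (5339 and 8068) and secretory cells (29252 and 22537).

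The sequence just before a gene's start is where factors that switch chemokines on bind, and the 3 members whose windows hold a kappa-B-like motif are shown with Cxcl15, a neighbour on the same chromosome that holds none. The motif GGGNNTTTCC, the letters of a classical NF-kappa-B site, was searched on both strands of the 250 bases before the start in RefSeq (GRCm38.p6). Of 32851 such windows, 464 (1.41%) held it, as did 3 of the 7 members with a window, Ccl20, Cxcl1 and Cxcl2, while those of Cxcl15, Ccl17, Ccl22 and Ccl6 did not. Cxcl5, Cxcl16 and Cxcl17 were without a window. Each line gives 120 bases on the plus strand, 5′ to 3′, with matches in capitals. The lines of Ccl20 and Cxcl15 end directly before the RefSeq start, and those of Cxcl1 and Cxcl2 end 4 and 28 bases short of it.
Ccl20, chr1:83116646-83116765: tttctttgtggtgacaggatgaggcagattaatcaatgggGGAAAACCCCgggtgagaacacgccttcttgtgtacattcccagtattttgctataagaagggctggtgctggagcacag
Cxcl1, chr5:90891121-90891240: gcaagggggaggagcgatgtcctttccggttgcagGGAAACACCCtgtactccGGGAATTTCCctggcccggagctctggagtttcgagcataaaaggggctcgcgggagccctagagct
Cxcl2, chr5:90903751-90903870: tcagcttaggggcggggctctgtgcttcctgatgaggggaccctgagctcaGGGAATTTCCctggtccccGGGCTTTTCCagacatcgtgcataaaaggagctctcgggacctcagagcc
Cxcl15, chr5:90794414-90794533: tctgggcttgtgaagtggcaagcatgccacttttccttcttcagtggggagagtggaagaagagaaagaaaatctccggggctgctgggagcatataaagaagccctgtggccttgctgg

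The match of Ccl20 lay 80 to 71 bases before the RefSeq start on the minus strand. Cxcl1 had matches at 89 to 80 bases on the minus strand and at 71 to 62 on the plus strand, and Cxcl2 had matches at 97 to 88 and 78 to 69, both on the plus strand. The matches did not overlap one another, and a match is a run of letters, not evidence of binding. Cxcl5, Cxcl15, Cxcl1 and Cxcl2 lie in this order within chr5:90759360-90905938 on the plus strand, and Ccl22 and Ccl17 lie within chr8:94745590-94812036, with Cx3cl1, another chemokine gene, between them (GRCm38, GENCODE vM21). Of the rest, Ccl20 is on chromosome 1, Cxcl17 on chromosome 7, and Cxcl16 and Ccl6 on chromosome 11.

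Levels are given as UMIs per 1000000 UMIs of the gate (CPM), with exact 95% Poisson intervals. A ratio is the NAPH level over the Control level, divided by the median ratio of all genes with at least 30 UMIs in the gate, because 1 transcript such as Scgb1a1 took up to 59.6% of a gate's UMIs. That median was 0.09 in AT2, 0.61 in secretory, 0.42 in goblet-like, 0.09 in ciliated and -0.05 in myeloid cells on the log2 scale. A gene counted as past 2-fold at a relative ratio of at least 2 or at most 0.5 with at least 30 UMIs over both libraries of the gate.

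In AT2 cells all 10 members had 30 UMIs, 6 were past 2-fold higher in NAPH (all genes: 3.28%) and 1 was lower (2.2%), together 7 against 5.48% of all 11639 genes. In secretory cells 3 of 9 were higher (4.69%) and 0 lower (4.41%, either way 9.11%). Goblet-like cells had 2 of 5 higher (3.84%) and 0 lower (4.68%, either way 8.53%), and ciliated cells 1 of 2 higher (5.73%) and 0 lower (1.7%, either way 7.44%). In myeloid cells 4 of 7 were higher (3.36%) and 0 lower (2.59%, either way 5.94%). Of these 4, Cxcl15 and Cxcl17 stood at 0.596 to 2.13 times the level estimated for RNA from lysed cells of other gates. The median log2 relative ratio of the members with 30 UMIs ran from 0.16 in goblet-like to 1.56 in AT2 cells, where that of all genes is 0 by construction. The remaining member-gate pairs held too few UMIs: Cxcl2 in secretory cells, 5 members in goblet-like, 8 in ciliated and 3 in myeloid cells. Members that reached 30 UMIs only through the library where they were high had to differ, so these counts describe the pairs and support nothing further.

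**Figure D1:**
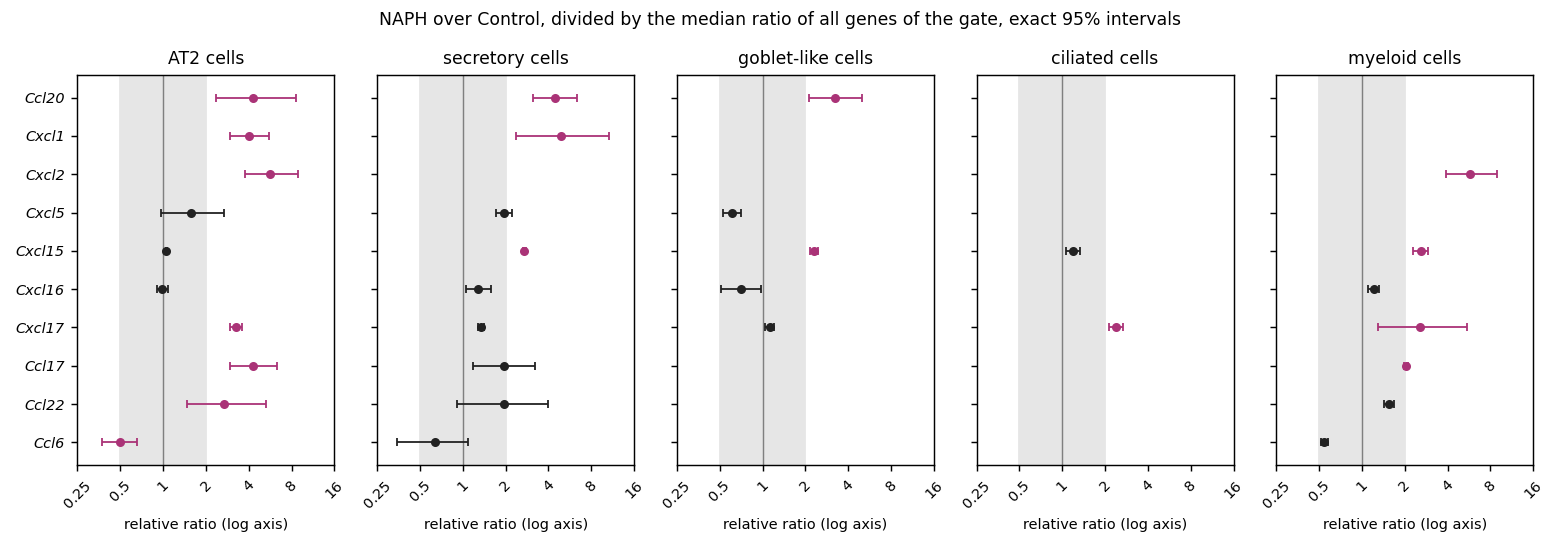
Relative ratio of each chemokine gene, NAPH over Control (log axis), for the 33 member-gate pairs with at least 30 UMIs; points are ratios, bars are exact 95% counting intervals, the grey band is 0.5 to 2 and purple marks values outside it. Points to the right of the band are most frequent in AT2 cells, and Ccl6 in AT2 cells is the single purple point to its left.

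Cxcl1, a CXCR2 ligand, was highest in AT2 cells in both libraries. It stood at 3.44 CPM (2.54 to 4.54, 49 UMIs) in Control AT2 cells and at 14.7 CPM (13.2 to 16.3, 367 UMIs) in NAPH, a relative ratio of 4.01 (2.97 to 5.52). AT2 and goblet-like cells, the next gate in the order by level, did not differ beyond counting error in either library, and nor did the other neighbouring gates. In secretory cells it had 0.624 CPM in Control and 4.67 in NAPH (relative ratio 4.92, 2.35 to 10.7) on 13 and 21 UMIs. Of the 21, 16 came from 1 cell, and without the top cell of each library the secretory ratio was 1.39 (0.379 to 4.34). Myeloid cells had 2 and 19 UMIs.

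Cxcl1 transcripts were concentrated in few AT2 cells. At least 1 UMI was found in 1.11% of Control and 4.45% of NAPH AT2 cells, or 0.556% and 2.39% when every cell was thinned to 3500 UMIs. A single Control cell held 25 of the 49 UMIs, and without the top cell of each library the levels were 1.68 and 12.9 CPM, a relative ratio of 7.16 (4.72 to 11.3).

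Cxcl2, the second CXCR2 ligand, was highest in myeloid cells and next in AT2 cells. Myeloid cells had 7.45 CPM (4.95 to 10.8, 28 UMIs) in Control and 41.8 CPM (35.9 to 48.4, 179 UMIs) in NAPH, a relative ratio of 5.79 (3.87 to 8.96). AT2 cells had 1.75 CPM (1.13 to 2.59, 25 UMIs) and 10.6 CPM (9.34 to 11.9, 264 UMIs), a relative ratio of 5.65 (3.74 to 8.89). In both gates the NAPH interval lay above that of Control. Ciliated cells held 0 UMIs in either library, which allows up to 2.54 CPM in Control and 1.52 in NAPH at 3 counts.

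The Control AT2 cell with 25 UMIs of Cxcl1 also held 22 of the 25 UMIs of Cxcl2, which were found in 3 cells in all. Without the top cell of each library the AT2 level of Cxcl2 was 0.21 CPM in Control (3 UMIs) and 7.77 in NAPH (194 UMIs), a relative ratio of 34.6 (11.7 to 169). In NAPH, 17 of the 112 AT2 cells with Cxcl1 also had Cxcl2 (15.2%, 9.10 to 23.2), against 1.66% (1.19 to 2.26) of the 2404 cells without Cxcl1, at median depths of 10308 and 9516 UMIs. The 72 NAPH AT2 cells with at least 10 UMIs of Areg and Sprr1a per 10000, both genes of stressed or injured epithelium, made up 2.86% of the gate and held 47.7% of its Cxcl2 UMIs. Their level was 171 CPM (142 to 203), with 8 of the 72 cells positive, and in the 2444 others it was 5.70 CPM. Cxcl1 stood at 59.6 CPM (43.3 to 80.1) in those 72 cells and at 13.3 CPM in the rest. The 10 Control cells of the same kind held 0 UMIs of either gene, which allows up to 43.9 CPM by the upper limit of the interval.

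Splitting AT2 cells by Lrg1, a gene of the acute phase response, left Cxcl1 higher in NAPH on both sides. With at least 5 Lrg1 UMIs per 10000 (174 Control and 1752 NAPH cells) Cxcl1 had 2.70 and 15.3 CPM, and under that level (1626 and 764 cells) it had 3.52 and 13.1 CPM. Cxcl2 stood at 0 and 12.9 CPM in the first class and at 1.96 and 4.47 CPM in the second.

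Among the gates Cxcl5, the third CXCR2 ligand, was highest in goblet-like cells. It had 181 CPM (167 to 196) there in Control and 148 CPM (131 to 166) in NAPH, a relative ratio of 0.611 (0.528 to 0.704) that stayed within 2-fold. Goblet-like cells held 92.4% of all Cxcl5 UMIs of the kept cells in Control and 33.9% in NAPH. The NAPH cells of no gate held 305 of its 820 UMIs at 202.8 CPM, above every gate. Secretory cells as a whole had 31.8 and 94.4 CPM, a relative ratio of 1.95 (1.72 to 2.20) that was 1.25 with cells thinned to 3500 UMIs and 25.01 with cells of exactly 1 gate.

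The goblet-like and other secretory cells differed in Cxcl5. Among secretory cells that did not meet the goblet-like gate, a split made after the data were seen, Cxcl5 stood at 1.62 CPM in 618 Control cells (27 with a UMI) and at 62.5 CPM in 130 NAPH cells (32 with a UMI). This was a plain CPM ratio of 38.6 (25.8 to 59.9) and a relative ratio of 24.1, while the goblet-like level was lower in NAPH. Of the 130 NAPH cells, 1 held 78 UMIs of Cxcl5, where the 121 that met no gate but the secretory held 169 in all. Secretory cells with a UMI of Upk3a, a uroplakin gene of a club cell subset, had 0.766 CPM in 44 Control cells and 123 CPM (110 to 138) in 93 NAPH cells, and held 70.1% of the NAPH secretory UMIs of Cxcl5. That Control level rests on few UMIs, and the interval of the plain CPM ratio was 28.7 to 6382. The 6 goblet-like markers summed to 11190 CPM in Control and 30690 in NAPH over all secretory cells, those of the goblet-like gate included. Most of the sum was Scgb3a1 (9210 and 28440 CPM), a gene of that gate. Reg3g was lower in NAPH (714 and 205 CPM), and the other markers of the list were higher. No such sum was made for the secretory cells outside the goblet-like gate, and the part of these markers in the Cxcl5 values was not tested. In the other gates Cxcl5 was low, with 1.61 and 2.72 CPM in AT2 (1.98 and 2.16 times the estimate for free secretory RNA), at most 2.53 in ciliated and at most 0.934 in myeloid cells, and neighbours among these 3 gates did not differ beyond counting error.

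**Figure D2:**
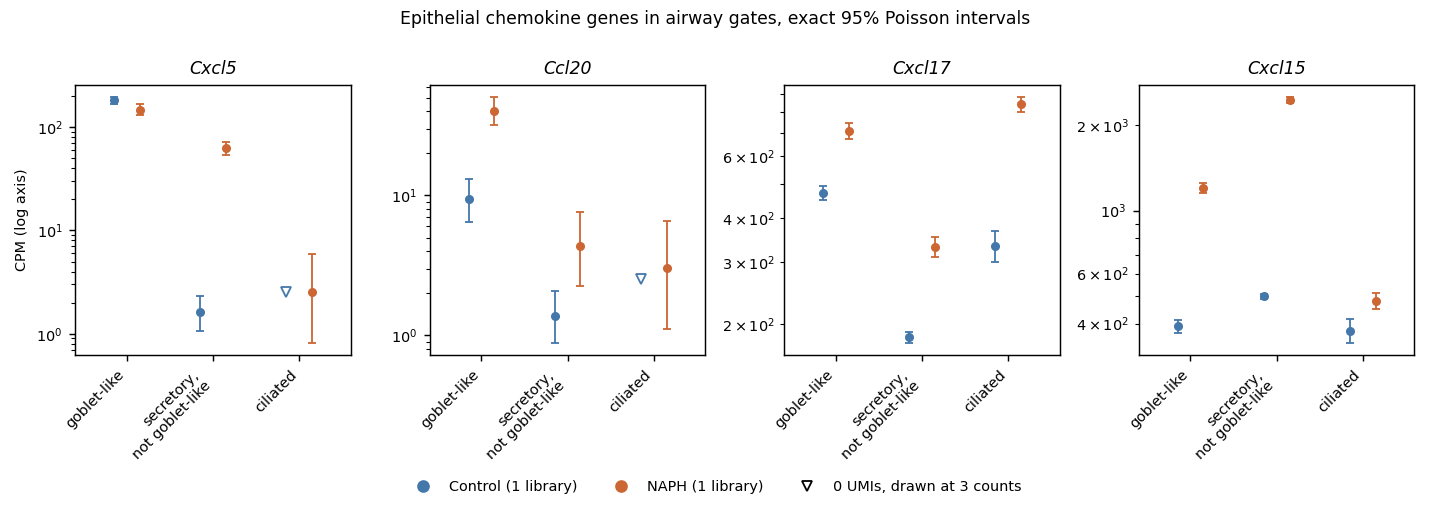
CPM (log axis) of Cxcl5, Ccl20, Cxcl17 and Cxcl15 in goblet-like cells, in secretory cells outside the goblet-like gate and in ciliated cells of each library; bars are exact 95% Poisson intervals and open triangles mark 0 UMIs at the level of 3 counts. Cxcl5 was within 181 to 148 CPM in goblet-like cells of both libraries but 1.62 in Control and 62.5 in NAPH in the other secretory cells.

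Ccl20, the ligand of CCR6 on dendritic cells and lymphocytes, had the same order of gates in both libraries, goblet-like above secretory above AT2. In NAPH the 160 cells of no gate stood above every gate, at 140.9 CPM. They held 212 of the 403 Ccl20 UMIs, with 123 in 1 cell. Goblet-like cells stood at 9.42 CPM (6.48 to 13.2, 33 UMIs) in Control and 40.5 CPM (31.9 to 50.6, 76 UMIs) in NAPH, a relative ratio of 3.21 (2.11 to 4.99). Secretory cells, which include them, stood at 2.74 and 18.5 CPM (4.43, 3.13 to 6.32), and AT2 cells at 0.841 and 3.85 CPM (4.28, 2.34 to 8.57). AT2 and ciliated cells did not differ beyond counting error, and the myeloid gate held 0 and 1 UMIs.

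These Ccl20 values rest on few cells. In goblet-like cells 10 of 139 Control and 7 of 75 NAPH cells had a UMI, and 1 NAPH cell held 62 of the 76 UMIs and 1 Control cell 23 of the 33. Without the top cell of each library the levels were 2.87 and 7.57 CPM in goblet-like cells, a relative ratio of 1.97 (0.814 to 4.96), and the secretory ratio was 1.89 (1.04 to 3.35). In AT2 cells 4 Control and 22 NAPH cells had Ccl20, and the ratio without the top cells was 4.82 (1.92 to 15.5). With cells thinned to 3500 UMIs, which left 1 Control and 11 NAPH cells with a UMI, it was 19.95. Among secretory cells with Ccl20, 8 of 22 in Control (36.4%, 17.2 to 59.3) and 9 of 12 in NAPH (75.0%, 42.8 to 94.5) also had Cxcl5, against 14.6% (12.1 to 17.3) and 32.4% (25.8 to 39.7) of the others. Median depths were 27876 and 29298 UMIs in Control and 28733.5 and 21976 in NAPH. These cells include the goblet-like cells, where both genes were highest among the gates. Within Control goblet-like cells the shares were 80.0% (44.4 to 97.5) and 62.0% (53.05 to 70.4), with overlapping intervals.

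Cxcl15 was the marker-like member of AT2 cells, with a UMI in all 1800 Control and all 2516 NAPH cells of the gate. It stood at 6886 CPM (6843 to 6930) in Control and 7708 CPM (7673 to 7742) in NAPH, a relative ratio of 1.05 (1.04 to 1.06). AT2 cells carried 90.4% of all Cxcl15 UMIs in Control and 94.3% in NAPH. It was therefore close to equal between the libraries in the gate that holds most of it.

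Outside AT2 cells, Cxcl15 was higher in NAPH in secretory, goblet-like and myeloid cells. Secretory cells had 481 CPM (472 to 491) in Control and 1988 CPM (1947 to 2029) in NAPH (relative ratio 2.71, 2.63 to 2.79), and goblet-like cells had 391 and 1198 CPM (2.29, 2.14 to 2.45). In Control the goblet-like and ciliated gates did not differ beyond counting error, but the 6 ciliated cells that met another gate held most of the Control ciliated UMIs. Without cells of several gates the ciliated level was 108 CPM (119 UMIs in place of 445) in Control and 297 CPM in NAPH, with a relative ratio of 2.58 in place of 1.19. Free RNA from lysed AT2 cells can put UMIs into any droplet, and its level was estimated from the Sftpc of the gate. That estimate was 80.3 CPM in Control and 368 CPM in NAPH secretory cells, so that the measured level was 5.99 and 5.41 times the estimate. In myeloid cells, with 90.0 and 225 CPM (2.59, 2.28 to 2.94), and in ciliated cells, with 377 and 480 CPM, the measured level was 1.14 to 1.46 times it. The 6 AT2 markers summed to 9810 CPM in Control and 26500 in NAPH secretory cells and to 2959 and 6106 in myeloid cells, and their part in the Cxcl15 differences was not tested further.

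By level Cxcl17 was highest in the airway gates in both libraries, and no neighbouring gates overlapped in the order by level. In Control the order was goblet-like (472 CPM, 450 to 496), ciliated (333, 301 to 368), secretory (232, 226 to 239), AT2 (33.2, 30.3 to 36.4) and myeloid (3.19, 1.65 to 5.58). In NAPH ciliated cells came first at 844 CPM (804 to 885), before goblet-like (708), secretory (475), AT2 (115) and myeloid cells (7.94). By plain CPM the ciliated and goblet-like gates thus changed places. Scgb1a1 took 48.96% and 30.65% of the goblet-like UMIs (Control, then NAPH) and 59.61% and 35.03% of the secretory UMIs. The most abundant gene of ciliated cells took 2.51% and 2.49%. CPM counts Scgb1a1 in the total, which lowers the goblet-like and secretory levels beside the ciliated level. The order without Scgb1a1 was not computed, so no change of places was read for Cxcl17 itself. By number of UMIs the order was another: AT2 cells, the largest gate, held 2867 of the 6888 Cxcl17 UMIs in NAPH, and ciliated cells 1668. In Control AT2 cells held 474 of 5696.

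The relative ratio of Cxcl17 was past 2-fold in ciliated cells (2.38, 2.13 to 2.66), AT2 cells (3.24, 2.94 to 3.58) and myeloid cells (2.57, 1.30 to 5.44), the last on 12 and 34 UMIs, at 0.00676 and 0.00941 of the highest gate and at 0.596 and 2.13 times the estimate for free RNA. It was 1.34 in secretory and 1.12 in goblet-like cells. A UMI was found in 70.5% of Control and 93.6% of NAPH ciliated cells, and after thinning to 3500 UMIs in 59.1% (51.8 to 66.1) and 88.2% (83.0 to 92.3). The thinned share of AT2 cells was 8.78% (7.51 to 10.2) and 27.8% (26.0 to 29.6), on 18.8% and 52.5% unthinned.

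In AT2 cells the Cxcl17 transcripts were spread out, since the 10 cells with the most held 12.2% of the UMIs in Control and 4.88% in NAPH. The level was 5.60 and 18.1 times what free secretory RNA would give by the Scgb1a1 of the gate (5.93 and 6.33 CPM). The 5 secretory markers summed to 19910 CPM in Control and 9123 in NAPH AT2 cells, mostly Scgb1a1 (15240 and 4675). Cyp2f2 and Cbr2 were also lower in NAPH, but Scgb3a2 (294.7 and 459.0 CPM) and Hp (701.6 and 1384) were higher. The part of these markers in the Cxcl17 values was not tested. The difference in Cxcl17 stood on both sides of the Lrg1 split, with 55.4 and 129 CPM (plain CPM ratio 2.32, 1.86 to 2.93) above it and 30.7 and 79.3 CPM (2.59, 2.27 to 2.95) under it.

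**Figure D3:**
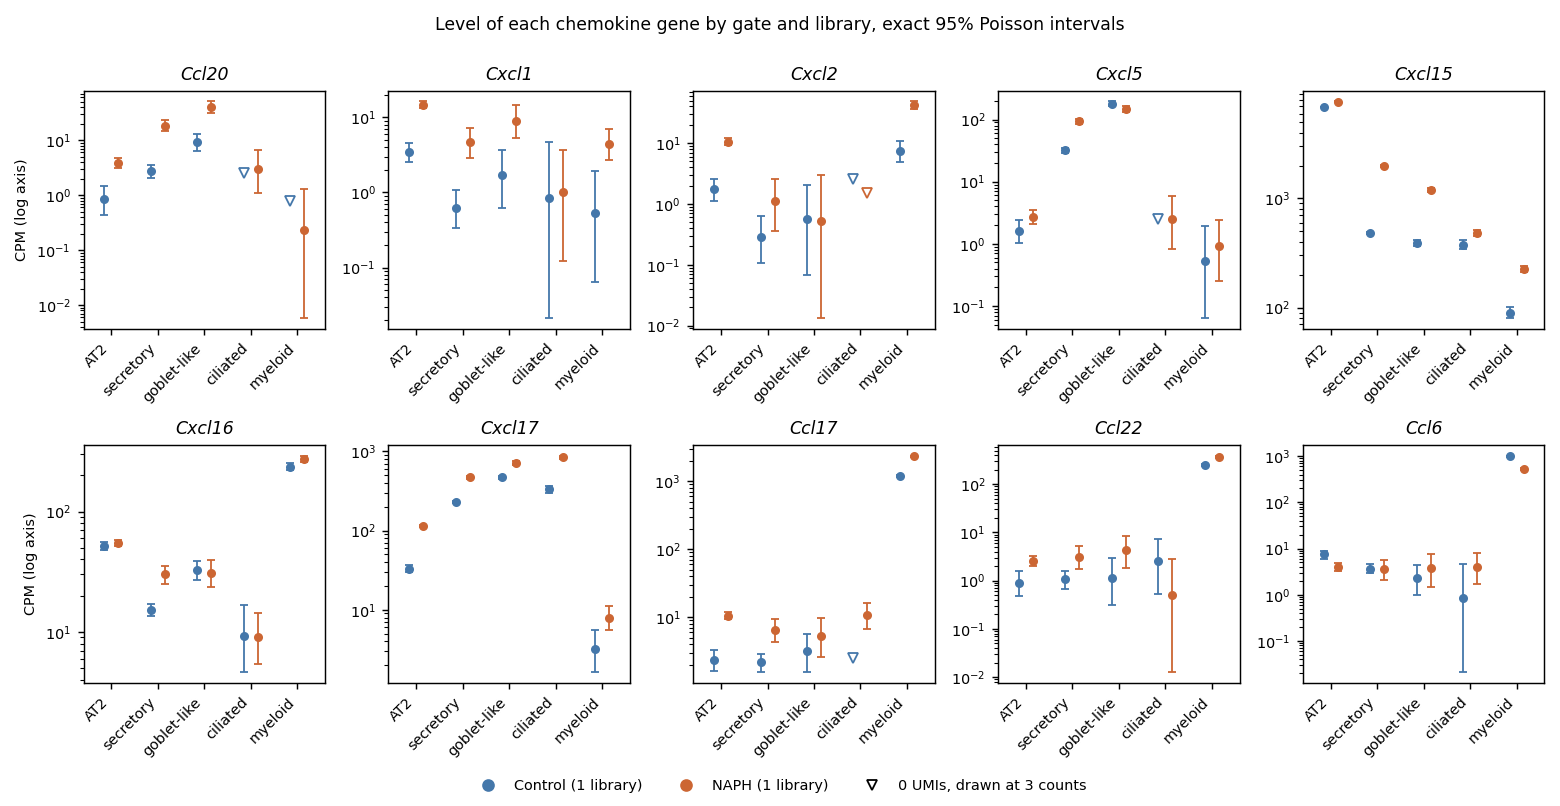
CPM (log axes with separate ranges) of each of the 10 chemokine genes in the 5 gates, Control in blue and NAPH in orange; bars are exact 95% Poisson intervals and open triangles mark 0 UMIs at the level of 3 counts. Ccl17, Ccl22, Ccl6, Cxcl16 and Cxcl2 peak in myeloid cells, Cxcl15 and Cxcl1 in AT2 cells, and Ccl20, Cxcl5 and, in Control, Cxcl17 in goblet-like cells.

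Cxcl16, which is made as a membrane protein and can be shed as the soluble ligand of CXCR6, varied little between the libraries. Myeloid cells came first with 236 CPM (221 to 252) in Control and 276 CPM (260 to 292) in NAPH (relative ratio 1.21, 1.10 to 1.32), then AT2 cells with 51.7 and 54.6 CPM (0.989, 0.904 to 1.08). Goblet-like cells had 32.5 and 30.9 CPM (0.71, 0.508 to 0.982), secretory cells 15.3 and 30.1 CPM (1.29, 1.05 to 1.58) and ciliated cells 9.32 and 9.11 CPM. None of these ratios was past 2-fold, and the neighbours that did not differ beyond counting error were secretory and ciliated cells in Control and goblet-like and secretory cells in NAPH. Within AT2 cells Cxcl16 was higher in the cells with Areg and Sprr1a in both libraries, at 190 CPM (109 to 309) in 10 Control and 179 CPM (150 to 212) in 72 NAPH cells, against 50.9 and 50.8 CPM in the others.

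Myeloid cells were divided by their UMIs of subset markers into mature dendritic (Ccr7, Il4i1, Fscn1), Xcr1 type (Xcr1, Clec9a, the cross-presenting kind), Cd209a type (Cd209a, Mgl2) and alveolar macrophage (Chil3, Ear1, Ear2, Plet1) subsets. The makeup of the gate differed between the libraries: 3.80% and 8.32% mature dendritic, 53.9% and 34.3% Xcr1 type, 25.7% and 45.1% Cd209a type, and 21.7% and 12.7% alveolar macrophage. No cell reached the neutrophil gate, and 0 Control and 20 NAPH cells reached the lymphocyte gate. In Control 50 and in NAPH 57 cells met 2 or more subset rules. Values below are therefore given for all cells of a subset and, for the main ones, also for the cells of exactly 1 subset, a choice made after the data were seen. Their ratios are plain CPM ratios.

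Ccl17, a CCR4 ligand for T cells, was a myeloid gene with 96.5% of its Control and 96.7% of its NAPH UMIs in that gate. The level was 1174 CPM (1140 to 1210) in Control and 2324 CPM (2278 to 2370) in NAPH, a relative ratio of 2.04 (1.97 to 2.12) at the edge of the threshold. The subsets differed in direction.

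Cd209a type cells were higher in NAPH in Ccl17, at 1509 and 4419 CPM (2.93, 2.77 to 3.10), and also among the 72 Control and 178 NAPH cells of that subset alone, at 1371 and 2377 CPM (1.73, 1.60 to 1.88). Xcr1 type cells were lower, at 1190 and 848 CPM (0.712, 0.668 to 0.759), and alone at 770 in 195 and 318 in 147 cells (0.414, 0.372 to 0.459). For mature dendritic cells the direction depended on the shared cells: 9985 CPM in 17 and 12940 in 42 cells (1.30, 1.22 to 1.38), but 6016 in 11 and 4310 in 21 cells of that subset alone (0.716, 0.637 to 0.806). Alveolar macrophages had 105 and 5123 CPM, where 15 of the 64 NAPH cells also met the Cd209a rule, and alone they held 3 and 4 UMIs.

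Ccl22, the other CCR4 ligand, was 251 CPM (235 to 268) in Control and 374 CPM (356 to 393) in NAPH myeloid cells, a relative ratio of 1.54 (1.42 to 1.67). It was concentrated in mature dendritic cells, which held 77.0% of the gate's UMIs in Control and 89.2% in NAPH and were a larger share of the gate in NAPH. Their level was 5479 CPM (15 of 17 cells with a UMI) and 4379 CPM (34 of 42 cells), a ratio of 0.799 (0.730 to 0.875), and in cells of that subset alone it was 4837 and 5202 CPM, 1.08 (0.953 to 1.22). Within mature dendritic cells, then, no reading of Ccl22 was higher in NAPH beyond counting error. Xcr1 type cells were lower in NAPH, at 175 and 40.2 CPM (0.23, 0.176 to 0.296), and Cd209a type cells higher, at 82.7 and 367 CPM (4.44, 3.52 to 5.67), and cells of these subsets alone had the same directions, with ratios of 0.3 and 7.60.

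Ccl22 was found in a larger share of the myeloid cells with Ccl17 than of those without, although most cells with Ccl17 held no Ccl22. Of the cells with Ccl17, 43 of 245 in Control (17.6%, 13.0 to 22.9) and 71 of 289 in NAPH (24.6%, 19.7 to 29.95) also had Ccl22, against 3.47% (1.40 to 7.01) and 3.70% (1.61 to 7.17) of the cells without Ccl17. Cxcl16 accompanied Ccl17 as well, with Ccl17 in 67.7% and 65.2% of myeloid cells with Cxcl16 and in 33.3% and 41.4% of those without. In that last pair the cells with Cxcl16 were deeper, at a median of 8450 against 7036 UMIs in Control and 8725 against 6572 in NAPH.

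Ccl6, the CCR1 ligand, was 995 CPM (963 to 1027) in Control and 525 CPM (504 to 547) in NAPH myeloid cells, a relative ratio of 0.545 (0.517 to 0.574) just inside the threshold. Alveolar macrophages held 78.8% and 78.3% of the gate's Ccl6 UMIs, and the direction within them depended on the shared cells. The level was 4340 CPM in 97 Control and 3895 CPM in 64 NAPH macrophages (0.898, 0.846 to 0.952), and 4593 and 5490 CPM in the 92 and 45 of that subset alone (1.20, 1.12 to 1.27), all of which had a Ccl6 UMI. Xcr1 type cells had 271 and 197 CPM (0.728, 0.637 to 0.831), and alone 274 and 58.1 CPM (0.212, 0.167 to 0.267). In Cd209a type cells Ccl6 was at 224 and 152 CPM (0.676, 0.564 to 0.811), and alone at 245 and 166 CPM (0.679, 0.547 to 0.845). The share of macrophages in the gate was smaller in NAPH, and the 6 macrophage markers summed to 2852 CPM in Control and 1184 in NAPH, and their part in the Ccl6 difference was not tested. The markers differed unequally: Marco stood at 32.5 and 0.7 CPM and Ear1 at 288 and 32.4, but Mrc1 at 94.2 and 81.0. Whether the macrophage subset holds the same kind of cell in both libraries was not tested.

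Cxcl2 within the myeloid gate was highest in alveolar macrophages, at 25.1 CPM in Control (9 of 97 cells with a UMI) and 155 CPM in NAPH (14 of 64 cells), a ratio of 6.18 (3.60 to 11.2), and in those of that subset alone at 26.8 and 255 CPM (9.49, 5.52 to 17.2). Mature dendritic cells had 0 UMIs in Control and 141 CPM in NAPH (46 UMIs in 8 of 42 cells), a NAPH level whose interval overlapped that of the macrophages, and Cd209a type cells had 5.17 and 40.6 CPM (7.86, 3.22 to 24.9). Alone, mature dendritic cells had 0 UMIs and 113 CPM, and Cd209a type cells 7.004 and 34.0 CPM (4.86, 1.77 to 18.6). Cxcl16 was highest in mature dendritic cells, at 1426 and 742 CPM (0.52, 0.428 to 0.633), and lower in NAPH there also in cells of that subset alone (0.579, 0.448 to 0.749).

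**Figure D4:**
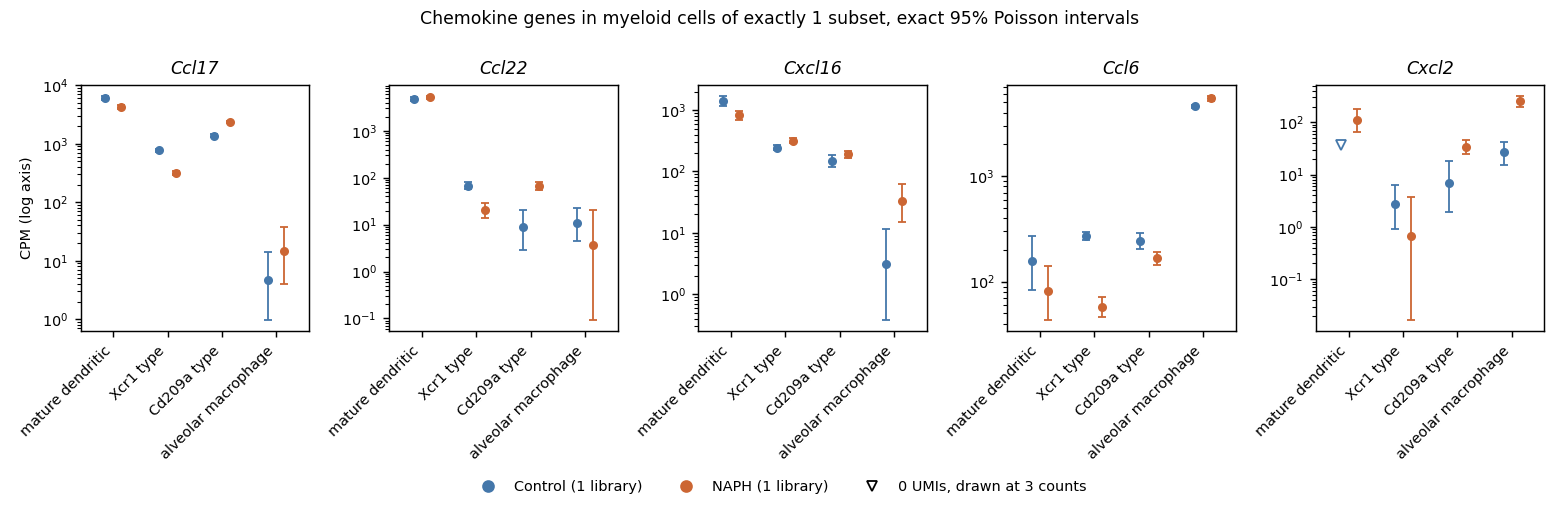
CPM (log axes with separate ranges) of Ccl17, Ccl22, Cxcl16, Ccl6 and Cxcl2 in myeloid cells of exactly 1 subset, Control in blue and NAPH in orange; bars are exact 95% Poisson intervals and the open triangle marks 0 UMIs at the level of 3 counts. Ccl22 and Cxcl16 peak in mature dendritic cells, Ccl6 and Cxcl2 in alveolar macrophages, and Ccl17 is lower in NAPH in Xcr1 type and higher in Cd209a type cells.

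In the epithelial gates the 3 myeloid chemokines stood at 0 to 2.47 times the estimate for free myeloid RNA. AT2 cells had 2.31 and 10.5 CPM of Ccl17, 0.911 and 2.60 CPM of Ccl22 and 7.43 and 3.93 CPM of Ccl6, each at most 0.00747 of the myeloid level of its library. These levels were 0.598 and 0.83, 1.10 and 1.28, and 2.27 and 1.37 times the free RNA that the myeloid markers of the gate would give. The 8 dendritic markers summed to 4.63 CPM in Control and 11.3 in NAPH AT2 cells, and the 6 macrophage markers to 35.6 and 17.5 CPM. Against these sums, Xcr1 (1.47 and 0.481 CPM) and Clec9a (0.631 and 0.441) were lower in NAPH and Mrc1 (0.841 and 1.04) was higher. The part of these markers in the values of the 3 members was not tested. In AT2 cells with under 2 UMIs of Ptprc, Coro1a and Cd52 (1793 and 2492 cells, a split made after the data were seen) Ccl17 had 1.98 and 6.00 CPM, Ccl22 0.917 and 1.66, and Ccl6 3.11 and 2.76. Their relative ratios were then 2.84, 1.70 and 0.831, so that Ccl22 and Ccl6 were no longer past 2-fold, and the count of AT2 members past it was 5 instead of 7. The 7 Control and 24 NAPH AT2 cells with more of those transcripts held 62 of the 106 Control UMIs of Ccl6 and 115 of the 263 NAPH UMIs of Ccl17. No epithelial expression of these 3 genes was read from the values.

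The receptors of the members were scarce in this Epcam sort. Of 7 receptor genes, only Gpr35 (22.6 CPM in Control and 24.5 in NAPH) and Ccr1 (35.7 and 38.3) had 30 UMIs, both in myeloid cells and both within 2-fold. Ccr4 had 0 UMIs in all 5 gates of both libraries, Cxcr1 had 2 UMIs and Cxcr6 4 UMIs, all myeloid. Cxcr2, the receptor of Cxcl1, Cxcl2 and Cxcl5, was at most 1.52 CPM and Ccr6, the receptor of Ccl20, at most 0.7 CPM in any gate.

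Among 23 other chemokines in the table, 6 of the 9 with 30 UMIs in myeloid cells were past 2-fold higher (all genes 3.36%) and 0 lower, with a median log2 relative ratio of 1.89. They included Cxcl3, a further CXCR2 ligand, at 0.266 CPM (1 UMI) and 21.9 CPM (94 UMIs), a relative ratio of 85.1 (14.9 to 3398), and Ccl4, at 0.532 and 11.2 CPM (21.7, 5.70 to 185). Cxcl13, the follicular B cell chemokine, had 0 and 45 UMIs and was 13.6-fold higher against 3 counts over the gate, with 10.6 as the lower limit of the counting interval. Of those 45 UMIs 39 came from 1 cell, and the 94 of Cxcl3 from 8 cells. Markers of other cell types were also higher in the NAPH myeloid gate: the 4 T or NK markers summed to 0.532 and 49.95 CPM, the 3 B markers to 0.532 and 13.5 and the 3 fibroblast markers to 0.798 and 17.5. The 20 NAPH cells of the lymphocyte subset held 10 of the 48 UMIs of Ccl4 and 0 of those of Cxcl3, Cxcl13 and Pf4, and the 6 NAPH cells with a fibroblast marker held 0 of these 4 genes. Pf4, platelet factor 4, and Ccl9, a CCR1 ligand, had relative ratios of 5.13 (2.13 to 14.95) and 3.72 (3.05 to 4.56). In secretory cells 2 of 5 were higher (all genes 4.69%), Cxcl3 with 0.24 and 5.56 CPM (15.2, 5.72 to 50.9) and Pf4 with 0.384 and 7.35 CPM (12.6, 5.69 to 31.5). In AT2 cells 1 of 5 (all genes 3.28%), Ccl5, was higher, at 0.421 and 1.32 CPM, but this was 0.74 and 2.34 times the free myeloid RNA estimated there and was not read as AT2 expression. In goblet-like cells 1 of 1, Cx3cl1, was lower (all genes 4.68%), with 16.6 and 10.1 CPM (0.457, 0.257 to 0.779).

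Of 17 other receptors, 9 had 30 UMIs in myeloid cells and all were within 2-fold, with a median log2 relative ratio of 0.08. In the epithelial gates the scavenger receptor Ackr3 was higher in secretory cells (1.10 and 3.56 CPM) and Ccrl2 lower in goblet-like cells (13.1 and 7.45 CPM). Xcr1, a dendritic marker, was past 2-fold lower in AT2 cells at 1.47 and 0.481 CPM, which is 0.014 and 0.0058 of its myeloid level and 4.26 and 1.06 times the estimate for free myeloid RNA, and no AT2 expression was read from it. Among the 3 proteases that shed or trim chemokines, Dpp4, which cleaves Ccl22, was higher in secretory cells (4.27 and 15.1 CPM, relative ratio 2.33, 1.67 to 3.23) and Adam10, which sheds Cxcl16, in ciliated cells (10.2 and 23.8 CPM, 2.19, 1.15 to 4.54). Dpp4 was highest in AT2 cells (61.1 and 51.5 CPM). Its secretory level was 0.07 and 0.294 of the AT2 level, and 6.00 and 6.16 times the estimate for free AT2 RNA. The other pairs of these 3 genes with 30 UMIs were within 2-fold.

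Of 16 genes of NF-kappa-B feedback and the IL-17 and IL-1 pathways, 3 of 13 in AT2 cells and 2 of 13 in myeloid cells were past 2-fold higher and 0 lower, against 3.28% and 3.36% of all genes higher, at median log2 relative ratios of 0.56 and 0.39. In secretory cells 1 of 12 was higher (all genes 4.69%) and 1 lower (4.41%), at a median of 0.07. Goblet-like cells had 1 of 8 higher (3.84%) and 1 lower (4.68%) at a median of -0.26, and ciliated cells 2 of 6 higher (5.73%) at 0.8. The alarmin Il33 stood at 174 and 749 CPM in AT2 cells (4.03, 3.86 to 4.201). It was past 2-fold higher in the other 4 gates too, with 2.40 and 31.8 CPM in secretory, 3.42 and 32.5 in goblet-like, 9.32 and 45.5 in ciliated and 1.33 and 21.5 in myeloid cells. Outside AT2 cells these levels were 0.852 to 1.41 times the estimate for free AT2 RNA and were not read as expression there. Il1b stood at 5.06 and 61.4 CPM in myeloid cells (12.5, 7.87 to 21.2) and had 0 and 34 UMIs in AT2 cells, 6.07-fold higher against 3 counts (lower limit of the counting interval 4.67). The NAPH AT2 level of Il1b was 0.0222 of the myeloid level and 4.06 times the estimate for free myeloid RNA. The RNase gene Zc3h12a was higher in AT2 cells (1.68 and 3.85 CPM, 2.14, 1.36 to 3.50), Nfkb2 in ciliated cells on 7 and 28 UMIs (5.93 and 14.2 CPM, 2.24, 0.956 to 6.08), the inhibitor gene Nfkbia was lower in goblet-like cells (152 and 82.0 CPM, 0.405, 0.336 to 0.485), and the feedback gene Tnfaip3 was lower in secretory cells on 43 and 7 UMIs (0.496, 0.188 to 1.11).

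Pearson correlations of log2(CPM + 1) across the 10 profiles, 5 gates in 2 libraries, named the genes most alike each member among 10690 genes. The profiles share libraries and cells, so the values are descriptive. Ccl17 was most like Cd209a (0.994), Mgl2 (0.992) and Ptpre (0.99), Ccl22 most like Prcp (0.995), Spp1 (0.992) and Btk (0.991), and Ccl6 most like AF251705 (0.996), Mcemp1 (0.996) and Hvcn1 (0.995). Cxcl5 was followed by Muc5b (0.991), Scgb3a1 (0.99, a gene of the goblet-like gate) and Atp10b (0.984), and Ccl20 by Fetub (0.968), Steap4 (0.959) and Synpo (0.956). Cxcl15 lay beside Cftr (0.986), Sfta2 (0.985) and Tle6 (0.984), and Cxcl17 beside Tspan1 (0.991), Syne4 (0.983) and Slc44a4 (0.978). For Cxcl1 the nearest were Adora2b (0.912), Lrg1 (0.889) and Lcn2 (0.882), for Cxcl2 Slc7a5 (0.944), Rpl23a-ps3 (0.94) and Rpl13a-ps1 (0.928), and for Cxcl16 they included Cyba (0.984) and Rpl7 (0.983).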

How the data were processed

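The deposited values were raw UMI counts per gene and barcode, made by the authors with Cell Ranger against mm10, per the submitters' processing notes. The sources used here give neither its version nor the rule that called barcodes as cells. Kept barcodes had at least 500 genes, 1000 UMIs and at most 20% mitochondrial UMIs (0 removed in Control, 4 in NAPH). Doublets were scored with Scrublet in scanpy 1.11.5 (Python 3.11.15). Its automatic threshold called 0.243% and 0.0815%, under the 0.5% minimum, so the top scores at 0.8% per 1000 barcodes were removed (87 and 108).

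UMIs were summed per gate and library (numpy 2.4.6). Intervals were exact: Poisson for levels, conditional Poisson for ratios, Clopper-Pearson for shares (scipy 1.17.1), all at 95%. The TMM scaling of edgeR 4.0.16 (R 4.3.3) gave log2 shifts of 0.09 in AT2, 0.65 in secretory, 0.46 in goblet-like, 0.1 in ciliated and -0.03 in myeloid cells, close to the medians used. A gene with 0 UMIs was bounded at 3 counts per gate. Free RNA was estimated as the level in the source gate scaled by its markers. On simulated Poisson counts of the AT2 gate, a 4-fold difference was recovered as 4.02 at the median over 100 genes, and 0.28% of unchanged genes passed 2-fold in that gate, against 0.58% in myeloid, 1.34% in ciliated, 1.5% in goblet-like and 1.96% in secretory cells.

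The 10 members, the chemokine-system and marker lists and the subset rules were chosen with earlier results of these data known. Named were all members, up to 5 system genes past 2-fold per gate by size, the members' receptors, and the 3 genes with the highest correlation to each member among those with at least 200 UMIs. One gene that this rule names is not reported here. Alternatives covered scaling, UMI minimum, fold threshold, cell filter, gate overlap and thresholds, weighting and thinning, with 3 added after seeing the data.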

Additional observations from a re-analysis of the deposited data

Results flagged for a closer look

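Cells that met no gate were outside the comparisons, and 4 members stood higher in them in NAPH than in Control. These were 25 Control and 160 NAPH cells, and the cells carried markers of several types, with summed levels of 421 and 231 CPM for 3 basal, 2335 and 2658 CPM for 4 AT1, 569 and 505 CPM for 3 fibroblast and 16770 and 41720 CPM for 5 secretory markers. Ccl20 stood at 140.9 CPM (123 to 161) in NAPH, where 11 cells had a UMI and 1 cell held 123 of the 212 UMIs, and at 0 UMIs in Control, which allows up to 17.8 CPM at 3 counts. Cxcl5 stood at 202.8 CPM (181 to 227) in NAPH, where 20 cells had a UMI, against 0 UMIs in Control. In NAPH both Ccl20 and Cxcl5 thus stood higher here than in any gate. Cxcl15 had 1577 CPM (1514 to 1642) in NAPH and 492 CPM (392 to 609.8) in Control, and Cxcl17 had 125.7 CPM (108 to 145) and 47.4 CPM (20.5 to 93.4). The myeloid members stood lower in NAPH, Ccl17 at 486 CPM in Control and 15.96 in NAPH, Ccl22 at 711 and 15.3, and Ccl6 at 184 and 7.31, where a single Control cell held all 82 UMIs of Ccl17, a single one all 120 of Ccl22, and one 30 of the 31 of Ccl6. With the NAPH cells split after the data were seen, 45 with a UMI of Krt5, Krt14 or Trp63 and 115 without, Ccl20 had 154 and 136 CPM, Cxcl5 79.4 and 248 CPM, and Cxcl17 127 and 125 CPM. The 10 Control cells with a basal marker had 128 CPM of Cxcl17 (7 UMIs) and the 15 without had 8.78 CPM (1 UMI). The Control cells were too few for a ratio to be read, and the differences were not tested.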

How the results depend on the processing

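Of 33 ratios of a member in a gate, 17 were past 2-fold, and no alternative turned the direction of one of these 17. Over 311 values from 8 alternatives and 3 more added after seeing the data, 252 lay within the counting interval and 59 outside it. The secretory count of 3 members was 7 on plain CPM, 7 at 1.5-fold, 5 with all deposited barcodes, 1 with cells thinned to 3500 UMIs and 1 without the top cell of each member. The goblet-like count of 2 was 4 at a minimum of 10 UMIs and 1 without the top cell. The ciliated count of 1 was 2 at 10 UMIs, 3 with all barcodes, 2 with cells of exactly 1 gate and 2 with doubled gate thresholds. The AT2 count of 7 ranged from 5 to 8 and the myeloid count of 4 from 3 to 6. The share of all genes past the fold is not given for these alternatives. The counts therefore describe only how the member counts depend on the rule. On plain CPM the median ratio of all genes in secretory cells was itself 1.523. Ccl20 and Cxcl1 in secretory cells had ratios of 1.26 and 1.30 with doubled thresholds, 2.07 and 2.37 with cells of exactly 1 gate and 6.75 and 7.49 on plain CPM, Ccl20 in goblet-like cells 2.025 thinned, Ccl17 in myeloid cells 1.98 on plain CPM and 1.99 with all barcodes, Ccl20, Ccl17 and Ccl22 in AT2 cells 19.95, 7.32 and 1.73 thinned, and Ccl6 there 0.528 on plain CPM, 0.564 with cells weighted the same and 0.565 thinned. The cause was not tested. With cells of exactly 1 gate, 17 of 20 highest gates were the same; goblet-like ratios could not be computed, since every Control goblet-like cell also met the secretory gate. The share of cells with a UMI was higher in NAPH for 42 of 50 member-gate pairs and for 37 after thinning. The same count was not made over all genes, so it was not read as a result about the members. AT2 and ciliated cells were deeper in NAPH, the secretory and goblet-like pairs share cells, and many pairs were at levels within reach of free RNA. No paired analysis was possible because each group has 1 library. Depth limits the member-gate pairs with under 30 UMIs, for which no ratio was read.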
